A study of Mus musculus with 12 samples.

Results

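The genes described here are 31 target genes of the hypoxia-inducible factors, taken by symbol from a list of known targets in glycolysis, angiogenesis, mitophagy and related functions, out of the 22537 genes in a count table of mouse liver RNA. All 31 were found in the table, and 29 of them were among the 13968 genes with enough reads to test; Epo and Eno1 were not. The livers came from 12 female C57BL/6 mice, aged 6 months, that had all been fed a high-fat diet over 13 weeks, with 3 mice in each of 4 genotype groups. ARNT KO mice lack hepatic ARNT and were set against ARNT Flox mice, in which Arnt is floxed, that is, flanked by recombination sites. AHR KO mice lack hepatic AHR and were set against AHR Flox mice, in which Ahr is floxed. The recombinase, its promoter and the deleted part of each gene were, in the sources used here, not given. The study's question was how liver gene expression changes in females on this diet when AHR or ARNT is missing.

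A hypoxia-inducible factor (HIF) is a pair of proteins: an alpha subunit, HIF-1alpha or HIF-2alpha (encoded by Hif1a and Epas1), and ARNT, also called HIF-1beta. When oxygen is plentiful, prolyl hydroxylases of the Egln family mark the alpha subunit for destruction through the VHL protein; when oxygen is scarce, it accumulates, pairs with ARNT and binds hypoxia response elements in its target genes. ARNT is also the partner of AHR, the aryl hydrocarbon receptor, which ligands such as dioxins activate. Oxygen falls along the liver lobule from the portal to the central vein, and HIF activity in hepatocytes bears on glucose and lipid metabolism and on erythropoietin.

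The core of a hypoxia response element is written ACGTG or GCGTG. Both were searched, with their reverse complements CACGT and CACGC, in the 250 bases before each RefSeq transcription start (build GRCm38.p6), and cores that overlap were counted once. ACGTG is also part of the E-box CACGTG, and GCGTG is the core of the element that AHR binds with ARNT. RefSeq promoters were matched for 29 of the 31 genes, with 42 windows among them; Bnip3l and Ndrg1 were not matched. At least 1 core was present in 32 of the 42 windows (76.2%), against 38.6% of all 32851 windows, and at least 2 cores in 45.2%, against 13.5%. Of the 29 matched genes, 26 had a core in at least 1 window. Some genes have several windows and no share by gene was computed over all genes, so this count has no background here. Many of these genes became known as HIF targets through such elements, so these shares describe the list and support nothing about the livers. A match is not a binding site, and no binding was measured.

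Windows of 4 genes are shown because they carry the values below: Ankrd37 and Egln3, lower in the ARNT KO mean; Hk2, for which 1 ARNT KO library decides the call; and Pgk1, which lay above every ARNT Flox library in all 3 ARNT KO livers. Gpi1 also lay above every ARNT Flox library in all 3 ARNT KO livers, but its window held 0 cores and is not shown. Each window shown is read 5′ to 3′ toward the start on the gene's own strand, with cores in capitals. The Ankrd37 window is chr8:45999851-46000100 (minus strand), the Egln3 window chr12:54203875-54204124 (minus), the Hk2 window chr6:82774455-82774704 (minus) and the Pgk1 window chrX:106186850-106187099 (plus). The Ankrd37 window precedes a transcript start that lies inside the annotated gene span, which reaches on to 46000414, and is the window the promoter table holds for this gene.
Ankrd37: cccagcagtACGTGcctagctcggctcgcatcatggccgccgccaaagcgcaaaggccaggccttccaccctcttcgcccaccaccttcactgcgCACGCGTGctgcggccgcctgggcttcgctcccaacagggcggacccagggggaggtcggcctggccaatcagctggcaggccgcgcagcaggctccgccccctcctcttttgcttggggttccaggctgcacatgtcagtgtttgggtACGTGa
Egln3: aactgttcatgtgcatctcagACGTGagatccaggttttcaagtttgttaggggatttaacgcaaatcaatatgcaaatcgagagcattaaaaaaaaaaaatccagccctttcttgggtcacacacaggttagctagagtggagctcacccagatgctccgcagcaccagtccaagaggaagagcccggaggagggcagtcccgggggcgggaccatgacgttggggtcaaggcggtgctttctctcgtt
Hk2: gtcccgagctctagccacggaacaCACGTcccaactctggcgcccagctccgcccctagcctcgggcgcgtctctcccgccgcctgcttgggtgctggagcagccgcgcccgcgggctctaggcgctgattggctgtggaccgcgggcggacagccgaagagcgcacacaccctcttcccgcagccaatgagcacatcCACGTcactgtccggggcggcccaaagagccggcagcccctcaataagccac
Pgk1: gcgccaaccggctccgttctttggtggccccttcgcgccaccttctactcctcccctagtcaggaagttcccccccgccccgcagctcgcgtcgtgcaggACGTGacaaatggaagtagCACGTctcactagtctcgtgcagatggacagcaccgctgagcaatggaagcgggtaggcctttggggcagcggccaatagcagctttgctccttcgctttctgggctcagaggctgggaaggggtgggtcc

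Ankrd37 had 3 cores, at 241 to 237, 155 to 148 and 6 to 2 bases before the start, and the middle one is the run CACGCGTG, in which 2 cores overlap. Egln3 had 1 core, at 229 to 225 bases before the start. Hk2 had 2, at 226 to 222 and 52 to 48 bases, and Pgk1 had 2, at 150 to 146 and 131 to 127 bases.

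Total counts ran from 23585909 to 33255004 per library. Values are CPM, counts divided by the TMM-scaled library size and brought to 1 common size, and a count of 0 leaves room for up to 3 counts, or 0.0861 to 0.126 CPM by library. Arnt (chromosome 3, 95434367 to 95497240, GRCm38.p6) stood at 25.2, 23.9 and 19.0 CPM in ARNT KO livers, against 47.8, 52.5 and 50.3 CPM in ARNT Flox livers, and was called lower with edgeR's quasi-likelihood test (log2 change −1.15 ± 0.12 SE, Benjamini-Hochberg adjusted p = 0.00601). Ahr stood at 84.4, 94.8 and 80.3 CPM in the libraries labelled AHR KO, against 53.9, 78.8 and 72.4 CPM in AHR Flox livers (log2 change 0.34 ± 0.17, adjusted p = 0.47 with edgeR), so its total count does not show the deletion. Counts cannot be split by exon here, and reads outside a deleted part check nothing. All 8 hepatocyte markers had reads in every library. ARNT KO replicate 3 stood apart: on the first principal component, with 43% of the variance, it lay at 65.3, and the other libraries lay between −30.9 and 30.3. Counts of genes called are therefore also given without it. In whole liver, fewer cells of a type and less RNA per cell cannot be told apart.

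The members differed widely in level. On a scale per length (RPKM, reads scaled by library size and exon length, mean of 12 libraries), Ldha was the most abundant at 213, followed by Bnip3 at 142, Tpi1 at 133, Pgk1 at 67.5 and Vegfa at 57.8 RPKM. Fam162a stood at 51.3, Gpi1 at 32.1, Aldoa at 26.7, Pdk1 at 23.1 and Bnip3l at 20 RPKM. At the low end, Ankrd37 stood at 1.07, Adm at 1.05, Hk1 at 0.642, Hk2 at 0.625, Pfkfb4 at 0.335 and Car9 at 0.19 RPKM. Ldha, Tpi1, Pgk1, Gpi1 and Aldoa, 5 glycolytic members, were thus abundant, while Hk1 and Hk2, the hexokinases of other tissues (hepatocytes mainly use glucokinase), were not. Epo, which encodes erythropoietin, had 0 reads in all 12 libraries, which allows at most the 3 counts given above in each. Eno1, an enolase, had 0 to 3 reads per library. Of the 50-base stretches of its transcripts, 26% are shared with other genes, 25.3% with Eno1b. Eno1b, under the symbol Gm5506, had group means of only 0.387 to 0.485 CPM. Whether reads of Eno1 were dropped or counted elsewhere was not tested. The share of such stretches was 53.9% for Pgk1 (mainly with the retrogene Pgk1-rs7) and 20.8% for Bnip3l (with a pseudogene). For Bnip3 it was 16.5%, for Ldha 9.03% and for Gpi1 8.23%. The levels of all these genes are uncertain for this reason, and the shares do not give the size of the error. The share was 0 for Ankrd37, Egln3, Hk1, Hk2 and Adm.

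**Figure D1:**
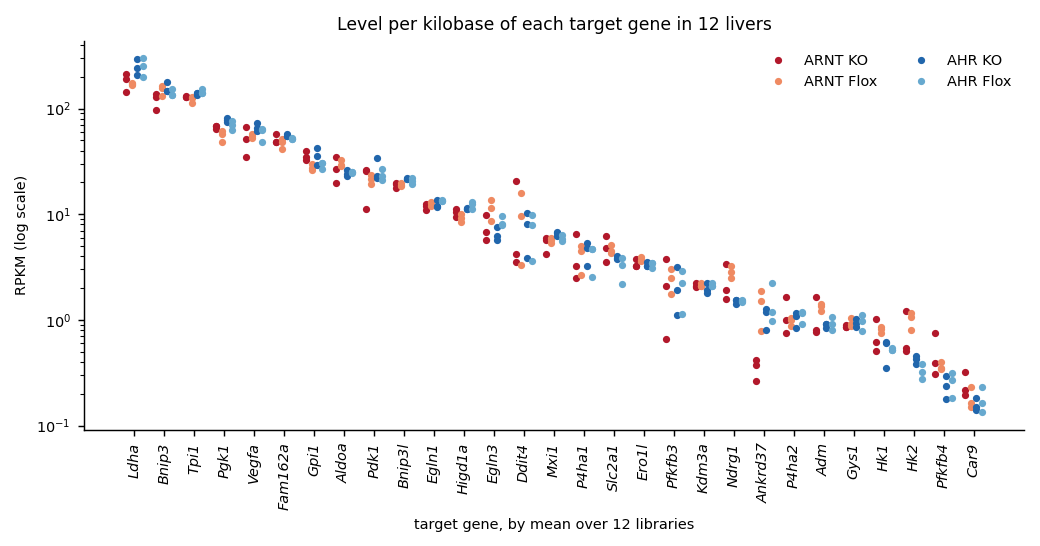
Levels of the 29 tested target genes in RPKM (log axis), ordered by their mean over 12 libraries, with 1 point per library coloured by group. Ldha leads with a mean of 213 RPKM and Car9 is last with 0.19 RPKM.

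In ARNT KO against ARNT Flox livers, none of the 29 target genes passed the threshold of adjusted p under 0.05 (edgeR quasi-likelihood test, Benjamini-Hochberg over all genes tested), where 0.0573% of all genes tested did (8 genes). At an unadjusted p under 0.05 there were 5 target genes, a share of 17.2% against 5.88% of all genes; 2 were above (3.36% of all genes) and 3 below (2.53%). The log2 change was above 0 for 11 and below 0 for 18 of the 29, where 52.6% of all genes were above and 47.4% below, and its median was −0.02 for the target genes and 0.01 for all genes. Without ARNT KO replicate 3, Ndrg1 and Hk2 were called lower (6.9% of the 29), against 1% of all genes called lower and 1.37% in either direction. At an unadjusted p under 0.05 there were then 10 target genes (34.5%, against 16.4% of all genes), 8 of them below (27.6%, against 8.94%), and the median was −0.11, against 0.00 for all genes. The libraries of the groups did not overlap for 3 target genes: Pgk1 and Gpi1 were above (5.94% of all genes were) and Ankrd37 was below (4.9% of all genes were). ARNT KO replicates 1 and 2 alone lay above every ARNT Flox library for 5 target genes (17.2%, against 19% of all genes) and below for 7 (24.1%, against 18.6%).

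Among the feedback and nuclear members, Ankrd37 stood out. It encodes a small ankyrin repeat protein and is a direct HIF-1 target in human cells (chromosome 8, 45996908 to 46000414). It stood at 0.403, 0.635 and 0.574 CPM in ARNT KO livers, against 2.32, 2.88 and 1.21 CPM in ARNT Flox livers, from 13, 20 and 20 reads against 78, 92 and 29 reads. It had 1.82, 1.94 and 1.22 CPM in AHR KO livers, against 1.5, 3.42 and 1.82 CPM in AHR Flox livers. All 3 ARNT KO libraries, replicate 3 included, lay below all 9 other libraries. Ankrd37 was the only member of which this held; it held for 38 of all genes tested (0.272%), and 91 genes (0.651%), none of them a member, lay above. The group means were 0.538 ± 0.12 CPM in ARNT KO and 2.14 ± 0.848 CPM in ARNT Flox livers (SD, n = 3 each), a log2 change of −2.0 ± 0.40 SE, or 3.99-fold lower. This did not pass the adjustment over all genes: its unadjusted p was 0.000407 and its adjusted p 0.257 with edgeR. The call depended on the tool, since the adjusted p was 0.00232 with DESeq2 (log2 change −2.0) and 0.0446 with limma-voom and sample quality weights (−1.94), and it ran from 0.00232 to 0.912 over the alternatives, highest without ARNT Flox replicate 1. The log2 change itself stayed between −2.27 and −1.72 in all 20 of them. With ARNT KO replicate 3 left out, the log2 change was −2.05 (edgeR adjusted p = 0.0694).

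Egln3, a prolyl hydroxylase that HIF itself induces, was chosen for a full account after its values were seen. It stood at 15.2, 25.9 and 18.2 CPM in ARNT KO livers, against 23.2, 30.6 and 36.2 CPM in ARNT Flox livers. These values overlap only through ARNT KO replicate 2, and the log2 change was −0.60 ± 0.21 (edgeR unadjusted p = 0.0136, adjusted p = 0.68). Egln3 stood at 20.2, 16.4 and 15.2 CPM in the AHR KO libraries, against 20.8, 25.7 and 21.7 CPM in AHR Flox livers. These did not overlap, but the log2 change of −0.40 ± 0.21 did not pass (edgeR adjusted p = 0.488). The log2 change in ARNT KO livers was −0.10 for Egln1, the main oxygen sensor of the family, and −0.02 for Kdm3a, a histone demethylase that HIF induces (edgeR adjusted p = 0.959 and 1).

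**Figure D2:**
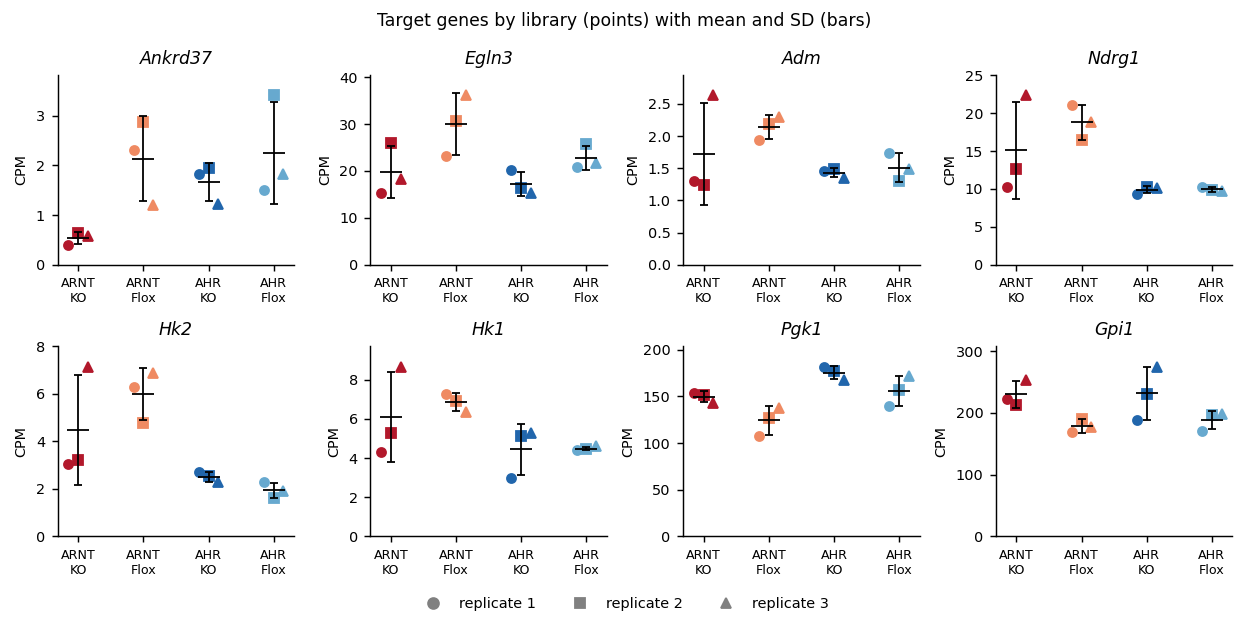
CPM of 8 target genes in every library, with the mean and SD of each group (n = 3), ARNT KO left of ARNT Flox and AHR KO left of AHR Flox. The 3 ARNT KO libraries lie below all others for Ankrd37, while ARNT KO replicate 3 lies above its mates for Hk2 (7.15 CPM), Ndrg1 (22.4 CPM), Hk1 (8.67 CPM) and Adm (2.64 CPM).

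The glycolytic members did not move one way. Pgk1, phosphoglycerate kinase (chromosome X, 106187100 to 106203699), stood at 154, 152 and 143 CPM in ARNT KO livers, against 108, 127 and 138 CPM in ARNT Flox livers. Gpi1, glucose-6-phosphate isomerase, stood at 223, 213 and 254 CPM in ARNT KO livers, against 169, 191 and 178 CPM in ARNT Flox livers. Both were above in every ARNT KO library, but neither passed: the log2 change was 0.27 ± 0.10 for Pgk1 (edgeR adjusted p = 0.74) and 0.36 ± 0.13 for Gpi1 (adjusted p = 0.705). These 2 lie opposite to Ankrd37 and Egln3. Tpi1, triosephosphate isomerase, stood at 356, 353 and 357 CPM in ARNT KO livers, against 312, 348 and 355 CPM in ARNT Flox livers, which overlap (log2 change 0.07 ± 0.08). In the AHR lines Tpi1 stood at 383, 388 and 367 CPM in AHR KO livers, against 383, 383 and 419 CPM in AHR Flox livers, and Pgk1 at 182, 177 and 168 CPM in AHR KO livers, against 140, 157 and 172 CPM in AHR Flox livers. Both overlap there.

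Ldha, which makes lactate from pyruvate, stood at 700, 635 and 472 CPM in ARNT KO livers, against 561, 580 and 556 CPM in ARNT Flox livers. ARNT KO replicate 3 was below all ARNT Flox libraries and the other ARNT KO libraries above them (log2 change 0.09 ± 0.18). AHR KO livers had 806, 692 and 982 CPM of Ldha, within the spread of AHR Flox livers. Pdk1, the kinase that holds pyruvate back from the mitochondrion, showed the same arrangement, with 204, 198 and 88 CPM in ARNT KO livers, against 149, 181 and 166 CPM in ARNT Flox livers (log2 change −0.02 ± 0.27). Slc2a1, the glucose transporter GLUT1, had a log2 change of 0.06, Aldoa, an aldolase, −0.15 and Gys1, the muscle-type glycogen synthase, −0.13. None of these passed. Pfkfb3 and Pfkfb4, which set the level of the activator of phosphofructokinase, had log2 changes of −0.16 ± 0.55 and 0.40 ± 0.33.

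Hk2, a hexokinase (chromosome 6, 82725025 to 82774454), stood at 3.04, 3.24 and 7.15 CPM in ARNT KO livers, against 6.31, 4.76 and 6.87 CPM in ARNT Flox livers. Ndrg1, a stress- and hypoxia-induced gene (chromosome 15, 66929318 to 66969641), stood at 10.3, 12.6 and 22.4 CPM in ARNT KO livers, against 21.1, 16.5 and 18.8 CPM in ARNT Flox livers. For both, ARNT KO replicates 1 and 2 lay below every ARNT Flox library and replicate 3 lay above every one of them. With all libraries the log2 change was −0.41 for Hk2 and −0.32 for Ndrg1 (edgeR adjusted p = 0.947 for each). Without ARNT KO replicate 3 it was −0.92 ± 0.19 for Hk2 (edgeR adjusted p = 0.0422) and −0.71 ± 0.12 for Ndrg1 (adjusted p = 0.0178). In edgeR 1 library thus decides both calls. For Ndrg1 the tool matters too: limma-voom with sample quality weights called it lower with all libraries (log2 change −0.51, adjusted p = 0.0456). Hk1, another hexokinase, was arranged likewise, with 4.31, 5.27 and 8.67 CPM in ARNT KO livers, against 7.29, 6.92 and 6.37 CPM in ARNT Flox livers, and was not called without replicate 3 either (log2 change −0.52 ± 0.21, edgeR adjusted p = 0.258).

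Of the secreted and surface members, Vegfa, the main angiogenic growth factor, stood at 285, 222 and 150 CPM in ARNT KO livers, against 247, 236 and 226 CPM in ARNT Flox livers. The groups overlap, and the log2 change was −0.11 ± 0.19. They overlap in the AHR lines too, with 279, 313 and 262 CPM in AHR KO livers, against 269, 276 and 208 CPM in AHR Flox livers. Adm, the vasodilator peptide adrenomedullin, was chosen for a full account after its values were seen. It stood at 1.30, 1.24 and 2.64 CPM in ARNT KO livers, against 1.94, 2.19 and 2.30 CPM in ARNT Flox livers, again with replicate 3 on the other side of its mates. Its log2 change was −0.30 ± 0.27 with all libraries and −0.74 ± 0.19 without ARNT KO replicate 3 (edgeR adjusted p = 0.98 and 0.0898). With all libraries, limma-voom with sample quality weights called Adm lower (log2 change −0.73, adjusted p = 0.0388). Car9, a carbonic anhydrase at the cell surface, had a log2 change of 0.42 ± 0.32, at 0.308 to 0.747 CPM over all libraries.

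Among the mitochondrial members, Bnip3, a mitophagy receptor, stood at 291, 310 and 221 CPM in ARNT KO livers, against 300, 353 and 371 CPM in ARNT Flox livers. The groups overlap in part, and the log2 change of −0.32 ± 0.14 did not pass (edgeR unadjusted p = 0.0473, adjusted p = 0.833). In the AHR lines Bnip3 stood at 404, 331 and 329 CPM in AHR KO livers, against 306, 349 and 304 CPM in AHR Flox livers, which overlap. Its relative Bnip3l, also a mitophagy receptor, had a log2 change of −0.01 ± 0.07. Higd1a, which binds the respiratory chain, stood at 34.0, 31.5 and 28.4 CPM in ARNT KO livers, against 25.8, 28.3 and 30.7 CPM in ARNT Flox livers (log2 change 0.15 ± 0.09). AHR KO livers had 34.1, 34.9 and 33.6 CPM of Higd1a. Fam162a, a mitochondrial protein linked to cell death in human cells, had a log2 change of 0.13 ± 0.09. Of the members that fold or modify collagen and secreted proteins, the prolyl 4-hydroxylase subunits P4ha1 and P4ha2 had log2 changes of 0.01 and 0.21, and the oxidase Ero1l −0.12. Of the growth regulators, the MYC antagonist Mxi1 had a log2 change of −0.11 ± 0.12 and Ddit4, an inhibitor of mTOR signalling induced by stress, −0.01 ± 0.71. None of these passed either.

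**Figure D3:**
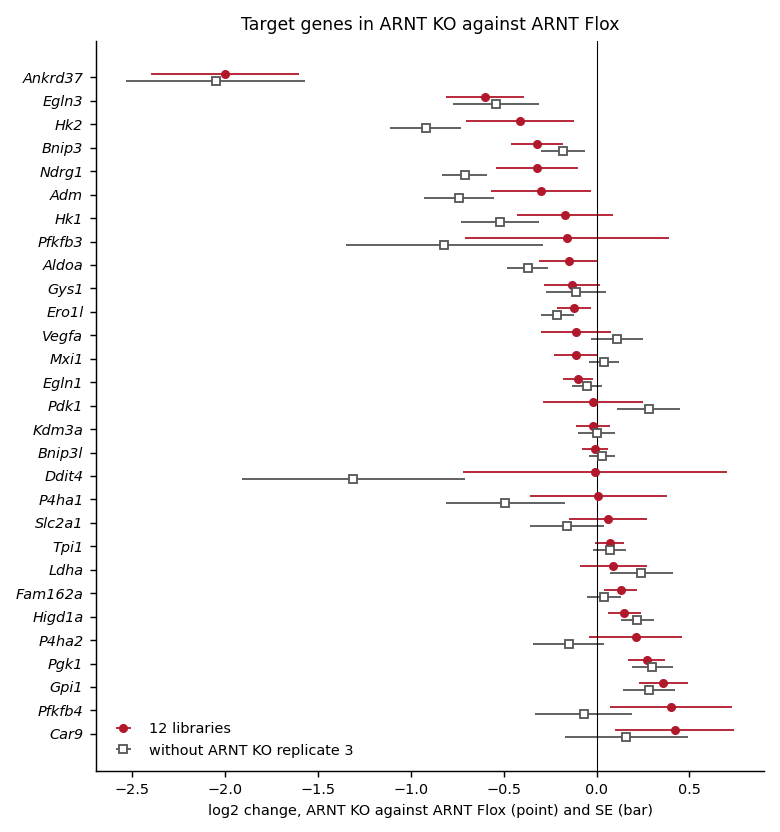
Log2 change of each tested target gene in ARNT KO against ARNT Flox livers, with SE, from the fit of all 12 libraries and from the fit without ARNT KO replicate 3. Ankrd37 stays near −2 in both, while Hk2 (−0.41 and −0.92) and Ndrg1 (−0.32 and −0.71) lie farther below 0 without that library.

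ARNT KO replicate 3 differed from its mates more in the target genes than in the median gene. Of the 29, it lay above both mates for 16 and below both for 10. Most genes did so: of all 13968 genes tested, it lay above both for 5816 and below both for 5800. These counts therefore show nothing particular to the target genes. The absolute gap to the mean of the mates had a median of 0.5 log2 units, against 0.29 for all genes tested, and it exceeded 1 for 7 target genes (24.1%), against 11.2% of all genes. The largest gaps were in Ddit4 (2.42) and Pfkfb3 (1.67). Gaps over 1 were also found in P4ha1 (1.19), Hk2 (1.17), Pfkfb4 (1.08), Adm (1.02) and, in the other direction, Pdk1 (−1.19). For Ddit4, Pfkfb3 and P4ha1, replicate 3 was also the highest library in ARNT Flox and in AHR Flox. In AHR KO it was the highest for Pfkfb3 and P4ha1 and the lowest for Ddit4. For Hk2, Pfkfb4 and Adm, replicate 3 was not the highest in both control groups. These gaps are thus not all particular to ARNT KO replicate 3. Ankrd37 differed by 0.16 and lay between its mates.

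Some marker lists of other cell types differed in ARNT KO replicate 3 too, and others lay near ARNT Flox. Stellate cell markers summed to 414 CPM there, above its mates (284 and 366 CPM) but within ARNT Flox (333 to 417 CPM). Endothelial markers summed to 223 CPM there, to 183 and 214 CPM in its mates and to 196 to 220 CPM in ARNT Flox. Lymphocyte markers (7.32 CPM) and neutrophil markers (3.1 CPM) lay within ARNT Flox (6.49 to 10.2 and 2.16 to 4.17 CPM). The 5 cholangiocyte markers summed to 308 CPM in ARNT KO replicate 3, and to 45.8 and 80.3 CPM in replicates 1 and 2; the range was 71.6 to 112 CPM in ARNT Flox, 51.6 to 58.7 CPM in AHR KO and 59.8 to 69.9 CPM in AHR Flox livers. The 8 cell cycle genes summed to 64.7 CPM there, to 23.0 and 18.2 CPM in its mates and to 19.1 to 19.8 CPM in ARNT Flox livers. The 6 Kupffer cell markers summed to 705 CPM there, to 444 and 470 CPM in its mates and to 525 to 541 CPM in ARNT Flox livers. The 8 hepatocyte markers summed to 28900 CPM there, to 81400 and 83000 CPM in its mates and to 92000 to 115000 CPM in ARNT Flox livers. A sum follows the most abundant marker: the log2 change of these 8 in ARNT KO against ARNT Flox had a median of 0.03 (−1.03 to 0.37), and of 0.13 without replicate 3. None of these markers was at 0 in any library. Their part in the values of Hk2, Ndrg1, Adm and the other genes was not tested. The within-group SD on the log2 scale had a median of 0.27 over the target genes, against 0.19 over all genes, and was highest for Ddit4 (1.04) and Pfkfb3 (0.84), which varied in other groups as well: Ddit4 stood at 5.81, 16.9 and 27.9 CPM in ARNT Flox livers.

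**Figure D4:**
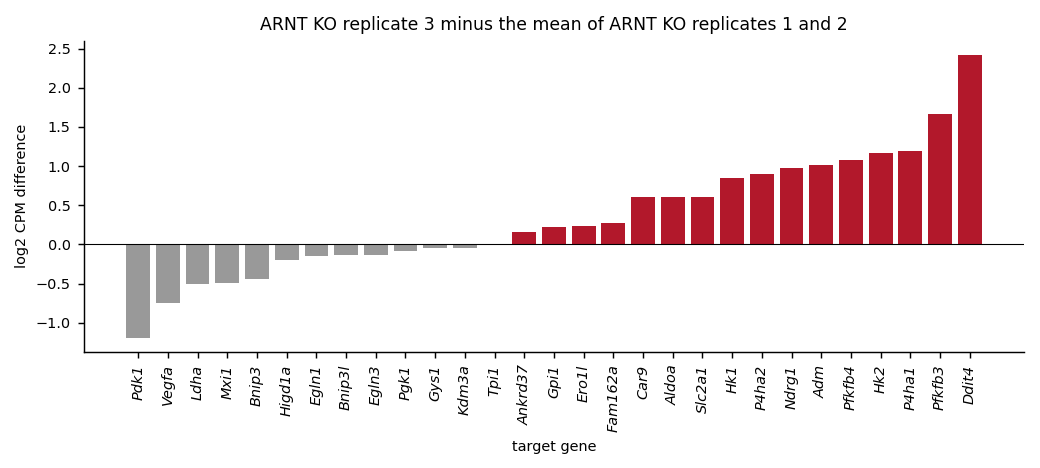
Log2 CPM of ARNT KO replicate 3 minus the mean of ARNT KO replicates 1 and 2 for each tested target gene. Ddit4 (2.42) and Pfkfb3 (1.67) lie highest, Pdk1 (−1.19) lies lowest and Ankrd37 (0.16) lies near 0.

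In the libraries labelled AHR KO against AHR Flox livers, edgeR called none of the 29 target genes, where 0.0788% of all genes were (11 genes). Leaving out ARNT KO replicate 3, which enters this comparison through the shared spread, left the count at 0, against 0.966% of all genes. Gpi1 alone had an unadjusted p under 0.05, against 11.9% of all genes: it stood at 189, 231 and 275 CPM in AHR KO, against 171, 196 and 198 CPM in AHR Flox livers (log2 change 0.30 ± 0.13, edgeR adjusted p = 0.394). Hk2 and Fam162a were above AHR Flox in every AHR KO library (11.7% of all genes were) and Egln3 was below (9.46% were). Hk2 stood at 2.70, 2.56 and 2.29 CPM, against 2.28, 1.64 and 1.90 CPM in AHR Flox livers, with a log2 change of 0.37 (edgeR adjusted p = 0.705). The hepatocyte marker sum was 35900 to 40800 CPM in AHR KO and 108000 to 116000 CPM in AHR Flox livers. The markers did not move as one: their log2 change had a median of 0.18 and ran from −3.74 to 0.40, and their part in these values was not tested. The median log2 change was −0.01 for the target genes and 0.01 for all genes.

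The difference between the ARNT KO and AHR KO effects was tested directly. None of the 29 target genes was called, where 0.043% of all genes were (6 genes). Ankrd37 had a log2 difference of −1.56 ± 0.55 (edgeR unadjusted p = 0.0153, adjusted p = 0.399): its log2 change was −2.0 in ARNT KO and −0.44 in AHR KO livers. Bnip3 was the other target gene with an unadjusted p under 0.05, against 9.51% of all genes, with a log2 change of −0.32 in ARNT KO and 0.15 in AHR KO livers. The ARNT KO libraries all lay on one side of the ARNT Flox mean, and the AHR KO libraries all on the opposite side of the AHR Flox mean, for 3 of the 29 target genes (10.3%), against 7.19% of all genes. Without ARNT KO replicate 3, Hk2 was called, with a log2 difference of −1.29 ± 0.26 (edgeR adjusted p = 0.0434), against 1.38% of all genes. With all libraries, no target gene was shown to differ between the effects, which does not show that they act alike.

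The control lines themselves differed. In ARNT Flox against AHR Flox livers none of the 29 target genes was called with all 12 libraries, where 0.329% of all genes were (46 genes; 23 with the replicate number as a block, with 0 target genes). At an unadjusted p under 0.05 there were 8 target genes, a share of 27.6% against 19.9% of all genes; 4 were above (10.5% of all genes) and 4 below (9.33%). The groups did not overlap for 14 of the 29. In 8 of these ARNT Flox was above (Slc2a1, Adm, Ndrg1, Hk1, Hk2, Pfkfb4, Aldoa and Ero1l; 27.6%, against 18.1% of all genes), and in 6 it was below (Ldha, Pgk1, Egln1, Higd1a, Tpi1 and Fam162a; 20.7%, against 17.7%). Markers of other cell types differed between the lines as well. The median log2 change was 0.69 (0.30 to 1.09) over 6 lymphocyte markers, 0.39 (0.18 to 0.58) over 6 Kupffer cell markers, 0.39 (0.20 to 1.05) over 6 stellate cell markers and 0.24 (0.12 to 0.32) over 5 endothelial markers, all above 0, and −0.15 (−0.62 to 0.12) over the hepatocyte markers. Their summed levels were 6.49 to 10.2 CPM in ARNT Flox and 4.68 to 6.03 CPM in AHR Flox livers for lymphocytes, and 525 to 541 CPM in ARNT Flox and 340 to 475 CPM in AHR Flox livers for Kupffer cells. For stellate cells they were 333 to 417 CPM in ARNT Flox and 239 to 325 CPM in AHR Flox livers, and for endothelium 196 to 220 CPM in ARNT Flox and 168 to 198 CPM in AHR Flox livers. None of these markers was at 0 in any library, and their part in the target genes' values was not tested. ARNT Flox libraries also serve in the ARNT KO comparison, so the comparisons share them.

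Hk2 stood at 6.31, 4.76 and 6.87 CPM in ARNT Flox livers, against 2.28, 1.64 and 1.90 CPM in AHR Flox livers, with means of 5.98 ± 1.09 and 1.94 ± 0.322 CPM (SD, n = 3 each). The groups are far apart, 3.07-fold (log2 change 1.62 ± 0.31), but the adjusted p was 0.0615 with edgeR. Ndrg1 stood at 21.1, 16.5 and 18.8 CPM in ARNT Flox livers, against 10.3, 9.91 and 9.69 CPM in AHR Flox livers, 1.89-fold apart (log2 change 0.92 ± 0.23, edgeR adjusted p = 0.107). Without ARNT KO replicate 3, Hk2 (log2 change 1.61, edgeR adjusted p = 0.000489) and Ndrg1 (0.92, adjusted p = 0.000843) were called higher in ARNT Flox, and Higd1a (−0.41, adjusted p = 0.0121) and Ldha (−0.55, adjusted p = 0.0416) were called lower. These 4 are 13.8% of the target genes, against 10.9% of all genes called in that fit, 6.38% higher and 4.51% lower. Ldha stood at 561, 580 and 556 CPM in ARNT Flox livers, against 832, 663 and 986 CPM in AHR Flox livers. Higd1a stood at 25.8, 28.3 and 30.7 CPM, against 34.4, 38.3 and 39.6 CPM in AHR Flox livers. For Hk2 and Ndrg1, ARNT KO replicates 1 and 2 thus lay nearer to the AHR groups than ARNT Flox livers did: Ndrg1 stood at 10.3 and 12.6 CPM in those ARNT KO livers and at 9.37, 10.2 and 10.1 CPM in AHR KO livers.

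Of the genes that make up and control HIF, 14 of 15 listed were tested. Arnt was the only one called in ARNT KO livers (lower), and Epas1, which encodes HIF-2alpha, the only one called between the control lines. Of all genes, 0.0573% and 0.329% were called in these 2 comparisons. With ARNT KO replicate 3 left out, the list had 2 called lower in ARNT KO livers (Arnt and Epas1), against 1% of all genes. It had none in AHR KO livers (0.966% of all genes) and 1 in the difference of effects (Arnt, against 1.38%). Between the control lines it again had 1, against 10.9% of all genes. Arnt is the gene that the knockout removes, so its calls describe the deletion and not the list. Epas1 stood at 362, 382 and 382 CPM in ARNT Flox livers, against 255, 267 and 270 CPM in AHR Flox livers (log2 change 0.51 ± 0.09, edgeR adjusted p = 0.045). It stood at 287, 276 and 243 CPM in ARNT KO livers, below every ARNT Flox library, with a log2 change of −0.48 ± 0.09 that did not pass with all libraries (edgeR adjusted p = 0.217) and did without ARNT KO replicate 3 (−0.41, adjusted p = 0.0422). Hif1a, for HIF-1alpha, stood at 67.4, 63.1 and 64.0 CPM in ARNT KO livers, against 72.7, 73.6 and 63.4 CPM in ARNT Flox livers, which overlap (log2 change −0.11, edgeR adjusted p = 0.948).

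Other glycolysis and glucose transport genes were listed too: of 24, all tested, none was called in any of the 4 comparisons with all libraries. Leaving out ARNT KO replicate 3, 5 were called between the control lines (20.8%, against the 10.9% of all genes given above), among them Hk3 (log2 change 0.78), Eno3 (0.36) and Pkm2 (0.50), higher in ARNT Flox livers, and Pfkl (−0.30), lower; in the other 3 comparisons the count stayed 0. Among those with the smallest p in ARNT KO against ARNT Flox livers were Eno3, the muscle enolase (log2 change −0.26 ± 0.10, edgeR adjusted p = 0.757), and Pgam2, a phosphoglycerate mutase (0.61 ± 0.29, adjusted p = 0.861). Of 40 other hypoxia-responsive genes, 35 were tested and none was called in any of the 4 with all libraries. There the smallest p were those of Mif, a cytokine (−0.31 ± 0.10, edgeR adjusted p = 0.666), Bhlhe41, a clock repressor (−1.26 ± 0.52, adjusted p = 0.793), and Pygl, the liver glycogen phosphorylase (0.26 ± 0.14, adjusted p = 0.884). Without ARNT KO replicate 3, Pygl was called higher in ARNT KO livers (log2 change 0.43, edgeR adjusted p = 0.0464); it stood at 548, 498 and 351 CPM in ARNT KO livers, against 374, 406 and 390 CPM in ARNT Flox livers. That fit tested 37 of the list and also called Mif in the difference of effects (−0.75), and Mif (0.45) and Pygl (−0.49) between the control lines. In ARNT KO against ARNT Flox livers the median log2 change was 0.01 over the glycolysis list and −0.04 over the hypoxia list, beside −0.02 over the target genes and 0.01 over all genes.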

How the data were processed

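Poly-A RNA was sequenced from 12 livers, 1 library each, prepared with NEBNext Ultra II per the labels. The deposited table holds whole-number counts per gene, made by the authors and not normalized. Tools named, per the submitters' processing notes, were STAR (2.5.4b, 2.6.0c), bcl2fastq 2.20, DESeq2 1.20.0 and R 3.5.1, and the build mm10; the counting tool, strand setting and annotation were not given in the sources used here. Without strand, reads of antisense partners cannot be told apart.

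All 12 libraries were fitted together in edgeR 4.0.16 (R 4.3.3) with a mean per group, TMM scaling and filterByExpr (minimum count 10, minimum total 15), which kept 13968 genes. The quasi-likelihood F test is two-sided, with Benjamini-Hochberg adjustment over those genes and a threshold of 0.05. Exon lengths and shared 50-base stretches came from GENCODE M21, positions and promoters from RefSeq GRCm38.p6. Script steps were tested on simulated data. Members, lists and comparisons were chosen with earlier results of these data known. All members are named; values in every library are given for those called with all libraries or without ARNT KO replicate 3, those whose ARNT KO libraries all lay on 1 side of ARNT Flox, and the 5 most abundant. Hk1, Egln3, Adm, Pdk1, Ddit4, Pygl and others given so were chosen after their values were seen. Some results of the listed genes are not reported here. P-values weigh a difference between groups against the spread between livers within groups, which edgeR estimated over all groups together. The SE comes from the quasi-likelihood fit and the SD from the livers of a group, so both include the spread between livers. Floors cover counting error only. Residuals of same-numbered ARNT Flox and AHR Flox libraries correlated (r of 0.327, 0.153 and 0.101), and that comparison is therefore also given with a block. Alternatives were DESeq2 size factors, TMM leaving out the 50 most abundant genes, no low-count filter, DESeq2 1.42.0, limma-voom 3.58.1 with and without sample quality weights, only the groups compared, a replicate block, and leaving out each library.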

Additional observations from a re-analysis of the deposited data

Results flagged for a closer look

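For 3 of the 29 target genes (10.3%, against 7.19% of all genes tested) every ARNT KO library lay on one side of the ARNT Flox mean and every AHR KO library on the opposite side of the AHR Flox mean. In edgeR's test, the difference of the effects (ARNT KO minus AHR KO, log2) was −0.47 ± 0.20 SE for Bnip3 (adjusted p = 0.495), 0.28 ± 0.13 for Higd1a (adjusted p = 0.526) and 0.13 ± 0.12 for Tpi1 (adjusted p = 0.823). None passed the adjustment over all genes. Groups of 3 libraries are too small for the gap test of single outlying values, which was not run.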

How the results depend on the processing

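Each result was recomputed under 20 alternatives (19 for the difference of effects): DESeq2 size factors, TMM leaving out the 50 most abundant genes, no low-count filter, DESeq2, limma-voom with and without sample quality weights, only the groups compared, the replicate block, and each library left out. Of 1154 values in 58 selected pairs of target gene and comparison, 1095 kept their direction and side of the threshold. Of the others, 28 changed sign and 31 became called. Some pairs that the text describes are not among the 58. For example, Ldha in AHR KO against AHR Flox changed sign under 6 alternatives. Over all 116 pairs, 113 of 2291 values changed sign: 28 in ARNT KO against ARNT Flox, 34 in AHR KO against AHR Flox, 33 in the difference and 18 between the control lines. Target genes called numbered 0 in AHR KO against AHR Flox under every alternative. In ARNT KO against ARNT Flox they numbered 1 of 29 with DESeq2 (Ankrd37), where 57 of all genes were called. They numbered 3 with quality weights (Adm, Ankrd37 and Ndrg1), where 422 of 13968 genes were, and 0 to 2 with a library left out. In ARNT Flox against AHR Flox they numbered 1 without a filter (Hk2) and 0 to 4 with a library left out. There they were 4 of 29 with DESeq2, where 537 of all genes were called. They were 8 with quality weights (2395 of 13968 genes) and 6 with only these groups (1615 of all genes). In the difference of effects they numbered 0 to 1 with a library left out. All genes called in ARNT KO against ARNT Flox numbered 8, with 57 by DESeq2, 5 by limma-voom, 422 with quality weights, 1 with only these groups and 1 to 193 with a library left out. In AHR KO against AHR Flox they numbered 11, with 28 unfiltered, 328 by DESeq2, 82 with quality weights and 5 to 136 with a library left out. In ARNT Flox against AHR Flox they numbered 46, with 537 by DESeq2, 2395 with quality weights, 1615 with only these groups and 12 to 1532 with a library left out. In the difference of effects they numbered 6, with 142 by DESeq2, 238 with quality weights and 1 to 194 with a library left out. The highest value of each range is that without ARNT KO replicate 3. The lowest for all genes called are those without ARNT Flox replicate 2 (ARNT KO against ARNT Flox), any AHR KO library (AHR KO against AHR Flox), ARNT Flox replicate 1 or 2 (between the control lines), and ARNT Flox replicate 3 or AHR KO replicate 2 (the difference).

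With the replicate block, 3 genes were called in ARNT KO against ARNT Flox, 10 in AHR KO against AHR Flox, 4 in the difference and 23 in ARNT Flox against AHR Flox, and no target gene in any. Same-numbered libraries of the other pairs of groups did not all correlate above 0.1. For ARNT KO and AHR Flox, r was 0.0376, 0.114 and 0.247. These values cannot decide whether the number is more than a label there, which was not tested.

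The median log2 change of the target genes in ARNT KO livers was −0.02, with −0.15 under quality weights. In ARNT KO against ARNT Flox, values near 0 changed sign, and so did those of Pfkfb4 (0.40 in the main fit) and P4ha2 (0.21). With quality weights Bnip3l was 0.03, P4ha1 −0.40, P4ha2 −0.23, Pdk1 0.16 and Slc2a1 −0.26. P4ha1 was −0.02 with limma-voom and −0.03 with the block. With a library left out, the log2 change ran from −0.37 to 0.04 for Aldoa, −0.03 to 0.03 for Bnip3l, −1.31 to 0.55 for Ddit4, −0.52 to 0.03 for Hk1, −0.06 to 0.01 for Kdm3a, −0.03 to 0.24 for Ldha, −0.20 to 0.04 for Mxi1, −0.49 to 0.27 for P4ha1, −0.15 to 0.43 for P4ha2, −0.21 to 0.28 for Pdk1, −0.82 to 0.27 for Pfkfb3, −0.07 to 0.64 for Pfkfb4, −0.16 to 0.25 for Slc2a1 and −0.34 to 0.11 for Vegfa. The cause of these changes was not tested. Depth limits Ankrd37, which rests on 13 to 20 reads per ARNT KO library.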
